A study of Danio rerio with 48 samples.

Results

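The genes acana, hapln1a, matn1, matn3a, epyc, snorc, cnmd, ucmab and sox9a, which belong to cartilage, the supporting tissue of the larval head skeleton, were followed in zebrafish heads. They were chosen by name, and they are 9 of 25377 genes in the deposited count table and 9 of the 20021 genes that were abundant enough to test. RNA-seq had been run on 48 pools of 15 heads cut in front of the swim bladder, from larvae of a mixed wild-type line kept from embryonic stages in 0.88, 1.57 or 2.8 µM perfluorooctane sulfonic acid (PFOS), a long-lived industrial surfactant, or in the vehicle dimethyl sulfoxide (DMSO) alone. Every group, exposed ones included, held 0.4% DMSO, and solutions were renewed daily. There were 8 groups of 6 pools, since each concentration was sampled on 2 days of development, 4 and 5 days after fertilisation (dpf). Each library averages the tissues of 15 heads, of which cartilage is one part, and levels are relative to the whole library. A lower level thus cannot be told apart as a smaller share of cartilage cells in the head or as less RNA per cell.

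Cartilage cells (chondrocytes) lie in a matrix that they secrete, built on fibrils of type II, IX and XI collagen and swollen by aggrecan, a core protein loaded with chondroitin sulfate chains. Link protein locks aggrecan onto hyaluronan, and matrilins bridge collagen fibrils and proteoglycans. Sox9 proteins bind regulatory DNA of many of these genes and are needed for chondrocytes to form, in fish as in mammals. In zebrafish larvae of these ages the jaw and gill arch skeleton is mostly cartilage, and bone is being laid down beside it. Among the 9 genes, acana encodes an aggrecan core protein, hapln1a a link protein, matn1 and matn3a matrilins, and epyc epiphycan, a small leucine-rich proteoglycan of cartilage. Snorc, known from mouse, is a small transmembrane proteoglycan of chondrocytes. The gene cnmd encodes chondromodulin, known from mammals as an inhibitor of blood vessel growth in cartilage, ucmab a Gla-rich secreted protein of cartilage, and sox9a one of the zebrafish Sox9 transcription factors.

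In the deposited table, on build GRCz11, acana lies on chromosome 7 from 48761646 to 48787380 (plus strand), hapln1a on chromosome 5 from 46490622 to 46505703 (minus), and matn1 on chromosome 19 from 43314700 to 43338281 (plus). The gene matn3a lies on chromosome 20 from 43760059 to 43775545 (minus), epyc on chromosome 4 from 16317296 to 16334363 (minus), and snorc on chromosome 2 from 48182604 to 48196093 (minus). The gene cnmd lies on chromosome 9 from 53725128 to 53744244 (plus), ucmab on chromosome 25 from 7982979 to 7988937 (plus), and sox9a on chromosome 12 from 1947593 to 1951285 (minus). All 9 were counted in all 48 libraries. The counts behind each value ranged from 24 to 187 per library for matn3a, from 83 to 291 for snorc and from 63.8 to 527 for ucmab, and from 16000 to 137000 for matn1, so a value of matn1 carries little counting error and a value of matn3a more. Counts were not divided by transcript length, and levels are compared here between samples and not between genes.

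The libraries held 14475198 to 28926584 counts each. Cartilage markers were present in every library: col2a1a, the type II collagen gene, lay between 12000 and 48000 CPM (counts scaled to the size of the library), and col9a1a between 470 and 2430 CPM. The notochord shares matrix genes with cartilage. Of its markers, tbxta lay between 0 and 1.37 CPM and was at 0 in 1 library. Others were higher: cmn lay between 0.531 and 10.8 CPM, col8a1a between 0.839 and 6.87 CPM and shha between 17.2 and 41.9 CPM. The log2 CPM of 3 libraries correlated less well with those of the same age, by the median over pairs. It was 0.922 for replicate A of the 4 dpf pools at 2.8 µM, 0.941 for replicate D of the 5 dpf pools at 1.57 µM and 0.915 for replicate H of the 5 dpf pools at 0.88 µM, and at least 0.959 in the rest. They are called low-correlation libraries below, and results that rest on them are given with and without them. Leaving them out also changed the spread that all groups share in the fit. The p-values of groups that hold none of them could thus change too. The labels do not tie pools to clutches, plates or sequencing pools, so what the p-values reflect is pool-to-pool spread, which may be technical in part.

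The low-correlation libraries stood apart in snorc, ucmab and hapln1a, and some of them in sox9a and cnmd. For snorc, 2.8 µM replicate A at 4 dpf was at 28.3 CPM, where the 5 other pools of its group were between 5.78 and 9.2 CPM. At 5 dpf, snorc was at 20.7 CPM in 0.88 µM replicate H, with its group otherwise between 4.08 and 6.74 CPM, and at 19.2 CPM in 1.57 µM replicate D, with its group otherwise between 3.75 and 6.02 CPM. These were the highest snorc values of the 48 libraries. For ucmab the same libraries were at 25.5, 31.6 and 35.1 CPM, above every other library of their age. For hapln1a they were low: 52.5 CPM in replicate A, where the others of its group were between 79.5 and 133 CPM, 12.2 CPM in replicate H (others 40.8 to 92.9 CPM) and 28.5 CPM in replicate D (others 47.8 to 64 CPM). For sox9a, replicate A was the lowest of 24 libraries of its age, at 19.4 CPM (others of its group 29 to 40.7), and replicate D the highest of 24, at 51.3 CPM (others 26.7 to 41.6). For cnmd, replicate A was the highest of 24, at 433 CPM (others 132 to 351). By contrast acana, matn1 and epyc were, in these libraries, inside the range of the other libraries of their age, and so was the mean log2 CPM of 12 cartilage collagens, with values of 9.54, 9.12 and 9.27 in replicates A, H and D against 8.5 to 9.67 and 8.27 to 9.31 in the others of 4 and of 5 dpf. Other cartilage lists fell outside that range in part. The mean log2 CPM of 16 other matrix genes was 2.21 in replicate A (2.43 to 3.26 in the others of its age) and 2.21 in replicate H (2.39 to 3.25). That of 22 chondrogenic factors and signals was 3.29 in replicate A (3.42 to 3.97), and that of 27 genes of sulfated sugar chain synthesis was 2.4 in replicate D and 2.17 in replicate H (2.42 to 2.92). The mean log2 CPM of 12 skeletal muscle genes was high in all 3, at 9.67, 10.05 and 9.91, against 8.15 to 9.26 at 4 dpf and 8.63 to 9.88 at 5 dpf. Marker lists of other tissues were out of range in some. Replicate A was high for neuron (7.8 against 6.86 to 7.75) and osteoblast genes (5.36 against 4.49 to 5.27). It was low for otic vesicle genes (2.87 against 3.21 to 4.23). Replicate H was low for perichondrium and fibroblast genes (5.32 against 5.42 to 6.13). The TMM factor that scales the size of a library was 0.538, 0.682 and 0.79 in replicates A, H and D, and between 0.769 and 1.43 in the others. A low factor raises the CPM of all genes of a library. The part of this scaling, tissue makeup or RNA quality in these values was not tested.

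**Figure D1:**
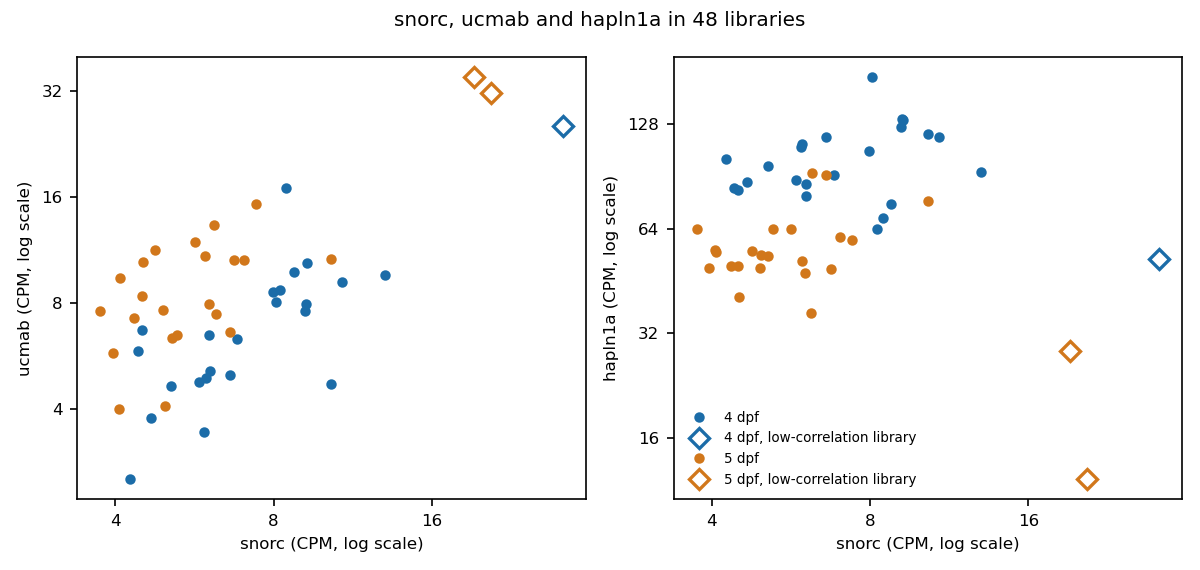
Levels in CPM on log axes, with 1 point per library (48 in all), of snorc against ucmab on the left and of snorc against hapln1a on the right. Open diamonds are the 3 low-correlation libraries, which have the highest snorc, at 19.2 to 28.3 CPM, together with high ucmab and low hapln1a.

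Age moved 4 of the structural matrix genes and sox9a. From 4 to 5 dpf, averaged over the 4 concentrations, matn1 fell 2.23-fold, hapln1a 1.83-fold, epyc 1.7-fold and acana 1.58-fold, and sox9a rose 1.24-fold, in 24 against 24 pools. The remaining 4 genes, matn3a, snorc, cnmd and ucmab, did not pass the test, although snorc passed as lower without the low-correlation libraries. This average was added after the values at each concentration had been seen. In it 43.3% of all genes tested passed, 20.5% lower and 22.8% higher, so 4 lower and 1 higher of 9 is to be read against a shift in much of the transcriptome. Taken one concentration at a time, 1 gene of 9 fell in DMSO, where 4.84% of all genes fell. Counts of 3, 4 and 3 of 9 fell under 0.88, 1.57 and 2.8 µM PFOS, where 4.34, 6.19 and 5.27% of all genes fell. With the low-correlation libraries left out the counts were 2 in DMSO and 4, 5 and 4 under PFOS, where 6.86, 4.08, 5.93 and 8.33% of all genes fell. The DMSO groups hold none of these libraries, so the same DMSO pools were compared. In either direction 14.2% of all genes passed in DMSO and 12.8, 15.2 and 12.4% under PFOS. In none of the 4 was a member called higher, where 9.34, 8.41, 8.98 and 7.1% of all genes rose.

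**Figure D2:**
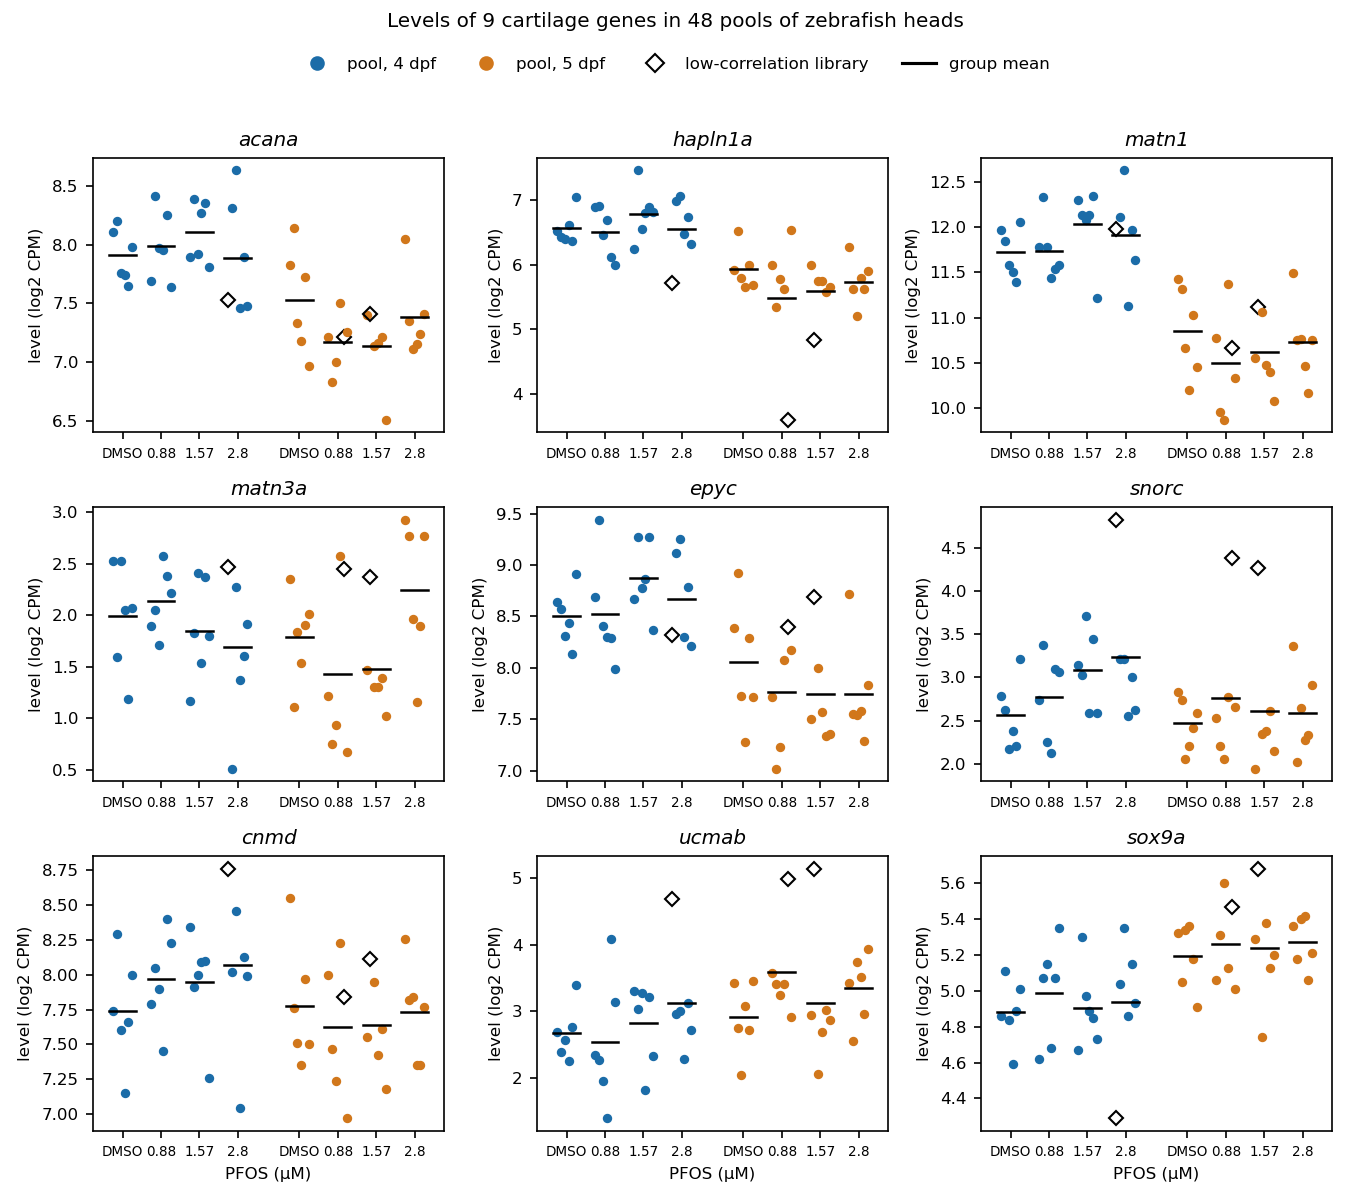
Level of each gene as log2 CPM in each of 48 pools, by PFOS concentration (DMSO, 0.88, 1.57 and 2.8 µM), with 4 dpf in blue on the left and 5 dpf in orange on the right of each panel. Bars are means of 6 pools and open diamonds the low-correlation libraries. The axes differ between panels. The genes acana, hapln1a, matn1 and epyc sit lower at 5 dpf, and the concentrations overlap within an age.

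The matrilin gene matn1 fell with age at every concentration. In DMSO its level ranged from 2690 to 4260 CPM at 4 dpf (median 3380) and from 1170 to 2760 CPM at 5 dpf (median 1860). At 0.88 µM it went from 2770 to 5190 CPM (median 3290) at 4 dpf to 934 to 2640 CPM (median 1450) at 5 dpf, and at 1.57 µM from 2390 to 5210 CPM (median 4510) to 1080 to 2230 CPM (median 1470). At 2.8 µM it went from 2240 to 6350 CPM (median 4030) to 1150 to 2870 CPM (median 1720). The 6 pools of one age did not overlap with the 6 of the other at 0.88 and 1.57 µM, and overlapped in DMSO and at 2.8 µM; values lower at 5 dpf without overlap were found for 1.02 and 3.04% of all genes at 0.88 and 1.57 µM, and for 3.07 and 2.56% in DMSO and at 2.8 µM. The log2 fold change was -0.83 ± 0.25 (SE) in DMSO, and -1.19, -1.42 and -1.19 (SE 0.26 each) under 0.88, 1.57 and 2.8 µM, with adjusted p of 0.0209, 0.00111, 0.000119 and 0.000832 by edgeR's quasi-likelihood test with Benjamini-Hochberg adjustment over 20021 genes, which is meant by adjusted p throughout. The call in DMSO was lost without DMSO replicate G (adjusted p = 0.0569) or replicate I (0.0624) at 5 dpf.

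The link protein gene hapln1a fell at the 3 PFOS concentrations. In DMSO it ranged from 82.7 to 132 CPM (median 88.6) at 4 dpf and from 50.2 to 91.7 CPM (median 58.1) at 5 dpf. The medians went from 95 to 52 CPM at 0.88 µM (64.1 to 120 and 12.2 to 92.9 CPM), from 111 to 51.8 CPM at 1.57 µM (75.4 to 175 and 28.5 to 64 CPM) and from 97.7 to 52.3 CPM at 2.8 µM (52.5 to 133 and 36.7 to 77 CPM). Ages did not overlap at 1.57 µM and overlapped at the other concentrations. The log2 fold change was -0.62 ± 0.26 in DMSO (adjusted p = 0.109), -0.83 ± 0.26 at 0.88 µM (0.0268), -1.2 ± 0.26 at 1.57 µM (0.0012) and -0.84 ± 0.26 at 2.8 µM (0.0251). Without the low-correlation libraries hapln1a passed in DMSO as well, at -0.6 ± 0.2 (adjusted p = 0.0301), and the other 3 calls remained (adjusted p of 0.0426, 0.000433 and 0.000698). No DMSO pool is a low-correlation library. The DMSO pools compared were therefore the same, with nearly the same estimate and a smaller SE. The call at 0.88 µM was lost without replicate B, D or G at 4 dpf or D, G or H at 5 dpf (adjusted p of 0.0641, 0.0652, 0.0524, 0.0581, 0.0526 and 0.0789), and that at 2.8 µM without replicate D or E at 4 dpf or F or H at 5 dpf (0.0583, 0.0651, 0.0678 and 0.0536).

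The aggrecan gene acana fell at 0.88 and 1.57 µM. Its medians in DMSO were 234 CPM at 4 dpf (201 to 293) and 186 CPM at 5 dpf (125 to 281). At 0.88 µM they were 249 CPM (200 to 339) and 148 CPM (113 to 181), at 1.57 µM 275 CPM (225 to 336) and 145 CPM (90.8 to 170), and at 2.8 µM 211 CPM (176 to 396) and 157 CPM (138 to 266). The 2 ages separated without overlap at 0.88 and 1.57 µM, and overlapped widely in DMSO. The log2 fold change was -0.34 ± 0.2 in DMSO (adjusted p = 0.28), -0.83 ± 0.2 at 0.88 µM (0.00324), -0.96 ± 0.2 at 1.57 µM (0.000628) and -0.53 ± 0.2 at 2.8 µM (0.0695). The change of acana under 2.8 µM passed without the low-correlation libraries (-0.62 ± 0.21, adjusted p = 0.0333), and without any one of replicates A, G and I at 4 dpf or C at 5 dpf (0.0393, 0.0408, 0.0423 and 0.0111).

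The epiphycan gene epyc fell at 1.57 and 2.8 µM. Medians went from 363 CPM (281 to 480) to 262 CPM (155 to 484) in DMSO, from 327 (254 to 694) to 241 CPM (130 to 338) at 0.88 µM, from 451 (331 to 616) to 185 CPM (162 to 412) at 1.57 µM and from 381 (296 to 608) to 190 CPM (157 to 421) at 2.8 µM. The ages overlapped in all 4, but at 1.57 µM only through replicate D, a low-correlation library, without which the 5 dpf pools lay between 162 and 255 CPM. The log2 fold change was -0.37 ± 0.27 in DMSO (adjusted p = 0.418), -0.75 ± 0.27 at 0.88 µM (0.0643), -1.07 ± 0.28 at 1.57 µM (0.00554) and -0.89 ± 0.27 at 2.8 µM (0.0246). Without the low-correlation libraries the change at 0.88 µM passed (-0.9 ± 0.28, adjusted p = 0.0273). It also passed there without replicate I at 4 dpf (0.0376) or H or I at 5 dpf (0.044 and 0.0448). The call at 2.8 µM was lost without replicate D or E at 4 dpf or F, G or H at 5 dpf (adjusted p of 0.0581, 0.069, 0.0557, 0.054 and 0.0704).

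The regulator sox9a moved the other way by a small amount. These are levels in whole heads, and which cells the rise lies in was not tested. The level of sox9a ranged from 19.4 to 40.7 CPM at 4 dpf (median 29.9) and from 26.7 to 51.3 CPM at 5 dpf (median 37.9) over the 24 pools of each age. The ages overlapped. Its log2 fold change was 0.31 in DMSO and 0.27, 0.35 and 0.31 under 0.88, 1.57 and 2.8 µM (SE 0.15 each), none of which passed alone (adjusted p of 0.161, 0.252, 0.104 and 0.181). Averaged over the concentrations it was 0.31 ± 0.074 and passed (adjusted p = 0.000612), and without the low-correlation libraries 0.24 ± 0.067 (0.00297).

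For the same average, matn1 was at -1.16 ± 0.13 (adjusted p = 2.9e-10), hapln1a at -0.87 ± 0.13 (3.63e-07), epyc at -0.77 ± 0.14 (9.49e-06) and acana at -0.66 ± 0.099 (3.43e-07), and all 4 kept their calls in every setting run. Snorc was at -0.27 ± 0.18 (adjusted p = 0.244), and without the low-correlation libraries at -0.42 ± 0.12, where it passed (0.00436). Under 1.57 µM alone the change of snorc with age was -0.29 ± 0.37 (adjusted p = 0.653), and -0.86 ± 0.25 without the low-correlation libraries, where it passed (0.0143). For the average, leaving out 1.57 µM replicate D or 0.88 µM replicate H alone was enough for snorc to pass (0.0429 and 0.0493). Chondromodulin, cnmd, was at -0.24 ± 0.12 (adjusted p = 0.0911) and passed without any one of 5 pools, namely 2.8 µM replicate G at 4 dpf and, at 5 dpf, 2.8 µM replicate C, 1.57 µM replicate E, 0.88 µM replicate A and DMSO replicate B, at adjusted p of 0.038, 0.0325, 0.0488, 0.0484 and 0.0357. The gene ucmab was at 0.48 ± 0.21 (0.0667). It passed without 2.8 µM replicate A (0.015), 0.88 µM replicate H (0.0154) or DMSO replicate I (0.047) at 4 dpf, or without 0.88 µM replicate I at 5 dpf (0.0491). Without all 3 low-correlation libraries it was at 0.3 ± 0.16 (0.123). The gene matn3a was at -0.16 ± 0.16 (0.46).

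**Figure D3:**
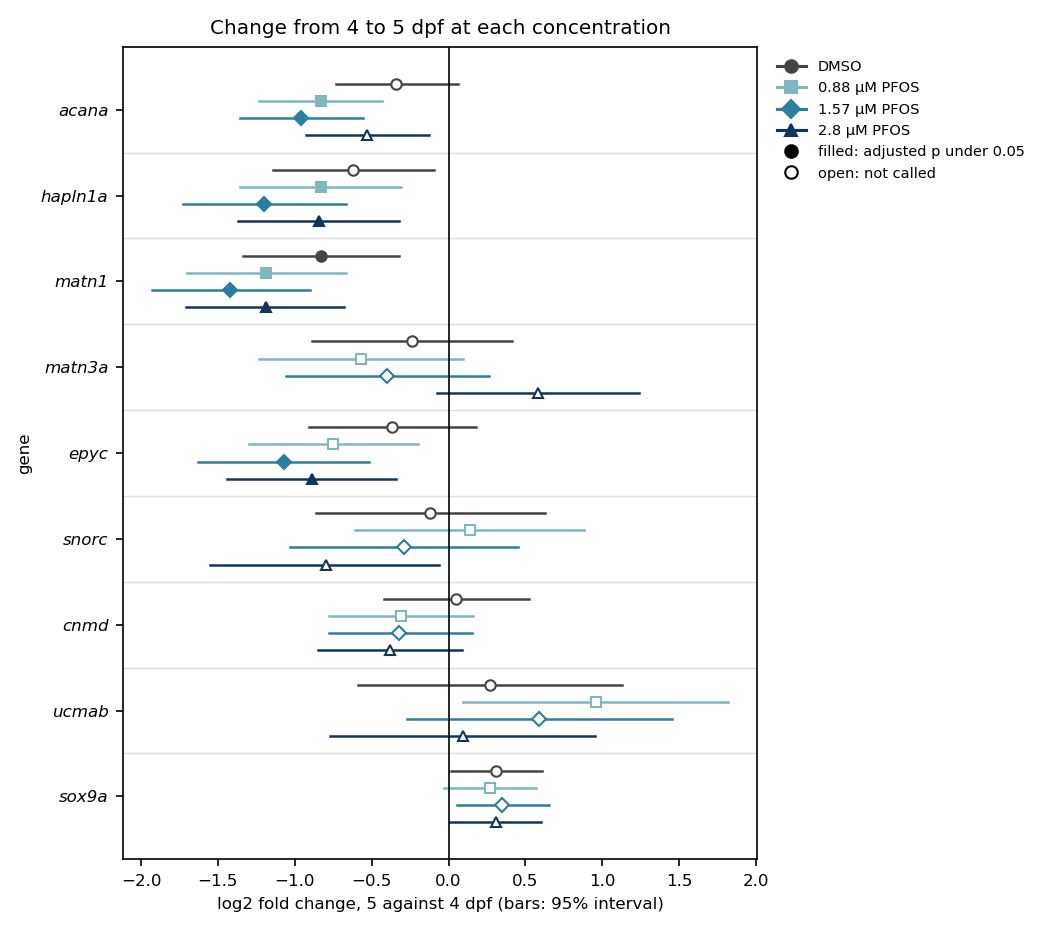
Log2 fold change of each gene from 4 to 5 dpf at each of the 4 concentrations, with 95% intervals. Filled symbols passed an adjusted p of 0.05. The gene matn1 passed at all 4 concentrations, with changes from -0.83 to -1.42, and sox9a was above 0 at each without passing.

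The called genes differed between DMSO and PFOS, yet the change with age was not shown to differ between them. The difference between ages of the PFOS effect, tested directly in the same fit, passed for 0 of 9 members at each concentration, as for 0% of all genes, and the lowest adjusted p of a member was 1 at 0.88 µM, 0.89 at 1.57 µM and 0.948 at 2.8 µM. For acana at 1.57 µM this difference was -0.62 ± 0.28 on the log2 scale (unadjusted p = 0.0306), with a 95% interval from -1.19 to -0.061, and for epyc it was -0.71 ± 0.39 (-1.49 to 0.068). Of the 3 concentrations, the tests at 0.88 and 1.57 µM were added after values had been seen. At an unadjusted p under 0.05, 1 of 9 members passed at 1.57 µM and 0 at 0.88 and 2.8 µM, beside 4.89, 2.47 and 3.82% of all genes. Leaving out the low-correlation libraries gave counts of 3 at 1.57 µM (acana, snorc and epyc, unadjusted p of 0.0202, 0.0293 and 0.0123), 0 at 0.88 µM and 1 at 2.8 µM (matn3a, 0.0348), beside 6.13, 2.63 and 4.69% of all genes. All 9 differences were then below 0 at 1.57 µM, where snorc went from -0.17 ± 0.52 to -0.76 ± 0.34, and the lowest adjusted p of a member was 0.739. With all libraries 7 of 9 were below 0, while 49.8% of all genes were above 0. Other lists shared the lean without the low-correlation libraries. Below 0 were 12 of 12 cartilage collagens, 15 of 16 other matrix genes, 11 of 11 osteoblast and 12 of 12 skeletal muscle genes. Of 15 neuron genes 14 were above 0. The part of tissue makeup was not tested.

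Other genes of the cartilage matrix were counted for the same change. Averaged over concentrations, 9 of 12 cartilage collagen genes tested fell and 1 rose, beside 20.5% of all genes lower and 22.8% higher. The one that rose was col10a1a, the type X collagen of enlarging chondrocytes and, in fish, of bone-forming cells, at 0.88 ± 0.12 (adjusted p = 9.38e-08), and in DMSO alone it was at 1.04 ± 0.25 (0.00241). Among those that fell were col11a2 at -0.77 ± 0.11 (5.42e-08) and col2a1a at -0.48 ± 0.11 (0.000499), both chosen after their values were seen. Of 16 other matrix genes 4 fell and 4 rose, not far from those shares of all genes. The paralogues acanb and hapln1b, chosen in the same way, fell by 0.52 ± 0.14 and by 1.09 ± 0.15 on the log2 scale (adjusted p of 0.00247 and 6.87e-08). The gene prelp, a leucine-rich proteoglycan of matrix, rose by 0.4 ± 0.079 (3.83e-05). In DMSO alone 4.84% of all genes fell and 9.34% rose. There 0 of the 12 collagens fell and 1 rose, and 0 of the 16 fell and 1 rose. The latter was prelp at 0.52 ± 0.16 (adjusted p = 0.02), a call lost without DMSO replicate A or G at 4 dpf or C or H at 5 dpf (0.0572, 0.0556, 0.0982 and 0.0722).

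Genes that make sulfated sugar chains, such as those of aggrecan, were called lower more often than higher. Of 27 tested, 17 fell and 3 rose on average over the concentrations, where 20.5% of all genes fell and 22.8% rose. In DMSO alone 7 fell and 2 rose, where 4.84% of all genes fell and 9.34% rose. There 11 of the 27 estimates were above 0, beside 49.6% of all genes. The medians were -0.36 and -0.21 on the log2 scale, beside -0.0033 and -0.0042 over all genes. In DMSO csgalnact1a, which starts chondroitin sulfate chains, fell (-1.01 ± 0.24, adjusted p = 0.00211), as did papss1, which makes the sulfate donor (-0.71 ± 0.13, 6.86e-05). Another sulfate donor gene, papss2a, was higher by 0.83 ± 0.28 (0.0365) in DMSO, a call lost without any one of 9 DMSO pools (adjusted p up to 0.2 over all settings), and on average it did not pass (0.26 ± 0.14, adjusted p = 0.131). Among 22 transcription factors and signals of cartilage other than sox9a, 8 fell and 1 rose on average, beside the same shares of all genes. In DMSO 0 rose and 3 fell. In DMSO these were mef2ca, which patterns jaw cartilage in zebrafish, at -0.82 ± 0.13 (9.72e-06), and sox5 and sox6, which act with Sox9, at -0.62 ± 0.12 (0.000191) and -0.45 ± 0.15 (0.0408). The call of sox6 was lost in 11 of 20 settings.

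Osteoblast, skeletal muscle and exocrine pancreas markers rose with age more often than genes at large, of which 9.34% rose and 4.84% fell in DMSO. In DMSO, with all libraries kept, lists of neuron, perichondrium and fibroblast, notochord and otic vesicle genes held 1 call each at most. In DMSO 5 of 11 osteoblast genes rose and 0 fell, with a summed level between 10300 and 22000 CPM at 4 dpf and between 12500 and 22600 CPM at 5 dpf. Of 12 skeletal muscle genes 4 rose and 0 fell, and the sum went from between 10600 and 22500 CPM to between 15200 and 40100 CPM. Of 15 neuron genes 0 rose and 1 fell (2 without the low-correlation libraries), with sums between 2710 and 4840 CPM and between 2640 and 4510 CPM. All 15 neuron estimates were below 0, while 49.6% of all genes were above 0. All 14 exocrine pancreas genes rose, from sums between 2.44 and 14 CPM to sums between 4.14 and 6410 CPM; 7 of them were at 0 in at least 1 of the 6 pools at 4 dpf. No osteoblast, muscle or neuron marker that was tested was at 0 in any of these DMSO pools. Of 12 osteoblast genes counted 11 were abundant enough to test, and zeros were looked for only in genes tested. Of 15 perichondrium and fibroblast genes 1 rose and 0 fell, with sums between 4100 and 7830 CPM and between 5050 and 8230 CPM. Of 7 notochord genes 1 rose and 0 fell, with sums of 46.3 to 66 CPM and 62.7 to 96.6 CPM, and of 6 otic vesicle genes 0 rose and 0 fell, with sums of 143 to 216 CPM and 125 to 241 CPM. Averaged over the 4 concentrations these lists held more calls, where 22.8% of all genes rose and 20.5% fell. Of neuron genes 0 rose and 4 fell, and of perichondrium and fibroblast genes 2 rose and 4 fell. For notochord 2 rose and 2 fell, and for otic vesicle 2 rose and 1 fell. Of osteoblast genes 6 rose and 0 fell, and of muscle genes 6 rose and 2 fell. The part of these tissues in the change of the cartilage genes was not tested.

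No effect of PFOS on the 9 genes was detected. Under each concentration and at both ages 0 of 9 members passed against DMSO by edgeR's quasi-likelihood test, and 0 passed in the trend per µM at either age, in every setting run, DESeq2 and limma included. Few genes of any kind passed: 0% of all genes tested in each of these comparisons except 1.57 µM at 5 dpf, where 0.0799% did, all of them lower. No member had 6 exposed pools that did not overlap with 6 DMSO pools, beside 0.0599, 0.0599 and 0.0999% of all genes at 4 dpf and 0.0499, 0.185 and 0.11% at 5 dpf, in order of concentration. At an unadjusted p under 0.05 the counts of members were 0, 0 and 1 at 4 dpf and 1, 1 and 0 at 5 dpf in order of concentration, beside 1.96, 1.95 and 6% and 5.18, 5.04 and 1.92% of all genes. For the trends they were 1 at 4 dpf and 0 at 5 dpf, beside 6.1 and 1.87% of all genes. These counts rest in part on the low-correlation libraries. Without them they were 0, 1 (snorc, unadjusted p = 0.0242) and 0 at 4 dpf, beside 3.58, 3.01 and 2.82% of all genes, and 1, 2 (acana and epyc, 0.0259 and 0.0351) and 0 at 5 dpf, beside 1.92, 4.49 and 3.55%. For snorc at 1.57 µM and 4 dpf the pools compared were the same. Its estimate was 0.53 ± 0.37 with all libraries and 0.54 ± 0.23 without the low-correlation ones. The trend at 4 dpf was then 0 as well, beside 3.16%. The 3 concentrations of an age were compared with the same 6 DMSO pools.

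The data bound what could have been missed. The 95% interval of the log2 fold change lay within 1 on either side of 0 for all 9 members at 0.88 µM and 4 dpf, and for 7 of 9 in each of the other 5 comparisons. For sox9a, the most tightly measured member, the 6 estimates were between 0.025 and 0.12, and the intervals reached from -0.27 to 0.42 at the widest. Its estimates without the low-correlation libraries were between -0.053 and 0.2, with that at 1.57 µM and 5 dpf turning from 0.062 to -0.053 and that at 2.8 µM and 4 dpf moving from 0.081 to 0.2. For matn1 the estimates were 0.03, 0.34 and 0.24 at 4 dpf and -0.33, -0.26 and -0.13 at 5 dpf, with a standard error of 0.25 in each.

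At 4 dpf the estimates leaned above DMSO without passing. In each of the 3 concentrations 8 of 9 members had an estimate above 0, with medians of 0.093, 0.21 and 0.2, beside 0.0061, 0.013 and 0.026 over all genes. Of all genes 51, 52.8 and 53.7% were above 0. The 3 counts share the same 6 DMSO pools. At 4 dpf only the 2.8 µM group holds a low-correlation library. Without the low-correlation libraries 8 of 9 members were again above 0 there, with a median of 0.2. The pools compared at 0.88 and 1.57 µM stayed the same. Their counts of 8 of 9 above 0, with medians of 0.098 and 0.22, are thus no separate check. The member with the highest value at 2.8 µM was snorc. In DMSO at 4 dpf it ranged from 4.42 to 9.25 CPM (median 5.58), at 0.88 µM from 4.27 to 10.3 CPM (median 7.43), at 1.57 µM from 5.91 to 13 CPM (median 8.42) and at 2.8 µM from 5.78 to 28.3 CPM (median 8.57). All 4 groups overlapped, and the highest pool was replicate A of 2.8 µM, a low-correlation library. The log2 fold change was 0.23 ± 0.37, 0.53 ± 0.37 and 0.86 ± 0.37 in order of concentration, with an adjusted p of 0.748 at 2.8 µM (unadjusted 0.0253), and the trend was 0.31 ± 0.13 per µM (unadjusted p = 0.0176, adjusted 0.777). Without the low-correlation libraries the 2.8 µM change was 0.35 ± 0.24 and the trend 0.13 ± 0.083 per µM.

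Of the other members at 2.8 µM and 4 dpf, ucmab was at 0.62 ± 0.43, and at 0.13 ± 0.32 without the low-correlation libraries. Its pools lay between 4.77 and 25.5 CPM against 4.66 to 10.4 CPM in DMSO. Chondromodulin, cnmd, was at 0.37 ± 0.23 (0.24 ± 0.24 without those libraries). The matrilin gene matn3a was the member below 0, at -0.27 ± 0.33, with pools between 1.34 and 5.44 CPM against 2.19 to 5.7 CPM. At 2.8 µM and 4 dpf 53.7% of all genes had an estimate above 0. Some sets of other genes leaned the same way as the members. The estimate was above 0 for all 12 cartilage collagens, 13 of 16 other matrix genes and 15 of 15 perichondrium and fibroblast genes. It was also above 0 for 10 of 11 osteoblast and 10 of 12 skeletal muscle genes. The counts for notochord (5 of 7) and sulfated sugar chain synthesis (18 of 27) were nearer that share of all genes. Others did not lean that way: the estimate was above 0 for 11 of 22 chondrogenic factors and signals (median 0.0088), 2 of 6 otic vesicle genes, 5 of 15 neuron genes and 4 of 14 exocrine pancreas genes. No gene of these lists passed. Without the low-correlation libraries 0 of 15 neuron genes and 15 of 22 chondrogenic factors were above 0, and the median of the muscle genes went from 0.35 to 0.083. The otic vesicle genes, of which 7 were then tested, turned to 6 of 7 above 0 (median 0.084). The summed muscle level was between 10600 and 22500 CPM in DMSO and between 10100 and 44800 CPM at 2.8 µM, and the summed neuron level between 2710 and 4840 CPM and between 2710 and 6210 CPM. Whether tissue makeup had a part in the lean was not tested.

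At 5 dpf the median of the members lay below 0, at -0.23, -0.26 and -0.061, with 6, 6 and 5 of 9 below 0, beside medians between -0.0047 and 0.0018 over all genes. Of all genes 49.6, 50.3 and 49.3% were above 0. Once the low-correlation libraries were left out, 7, 9 and 5 of 9 were below 0, with medians of -0.2, -0.28 and -0.077. At 2.8 µM the pools compared were the same. The lean at 1.57 µM was not particular to the members. There 12 of 12 cartilage collagens, 14 of 16 other matrix genes, 11 of 11 osteoblast and 11 of 12 skeletal muscle genes were also below 0. Of 15 neuron genes 14 were above 0. Whether tissue makeup had a part in this lean was not tested. At 0.88 and 1.57 µM acana had the smallest unadjusted p of the members. In DMSO its pools ranged from 125 to 281 CPM (median 186), at 0.88 µM from 113 to 181 CPM (median 148), and at 1.57 µM from 90.8 to 170 CPM (median 145). The groups overlapped, and the DMSO group was the wider one. Its log2 fold change was -0.4 ± 0.2 at 0.88 µM (unadjusted p = 0.0478, adjusted 0.872) and -0.42 ± 0.2 at 1.57 µM (unadjusted p = 0.0397, adjusted 0.923), and -0.16 ± 0.2 at 2.8 µM.

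The member farthest above DMSO at 5 dpf was ucmab, with 0.77 ± 0.43 at 0.88 µM and 0.52 ± 0.43 at 1.57 µM. Its DMSO pools ranged from 4.01 to 10.9 CPM (median 7.5), those at 0.88 µM from 7.43 to 31.6 CPM (median 10.5) and those at 1.57 µM from 4.08 to 35.1 CPM (median 7.41). The highest pool of each exposed group was a low-correlation library. Without these libraries the change was 0.32 ± 0.32 at 0.88 µM and -0.25 ± 0.32 at 1.57 µM, where it turned below 0. At 2.8 µM, whose 5 dpf pools hold no low-correlation library, matn3a had the highest estimate, 0.54 ± 0.32, with pools from 2.14 to 7.55 CPM against 2.07 to 5.02 CPM in DMSO, and epyc the lowest, -0.32 ± 0.27. For matn3a the 2.8 µM effect at 5 dpf minus that at 4 dpf was 0.82 ± 0.46 (95% interval -0.11 to 1.74, adjusted p = 0.948), and for snorc -0.69 ± 0.52 (-1.74 to 0.36, 0.948). These differences were, without the low-correlation libraries, 0.95 ± 0.44 and -0.2 ± 0.34.

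**Figure D4:**
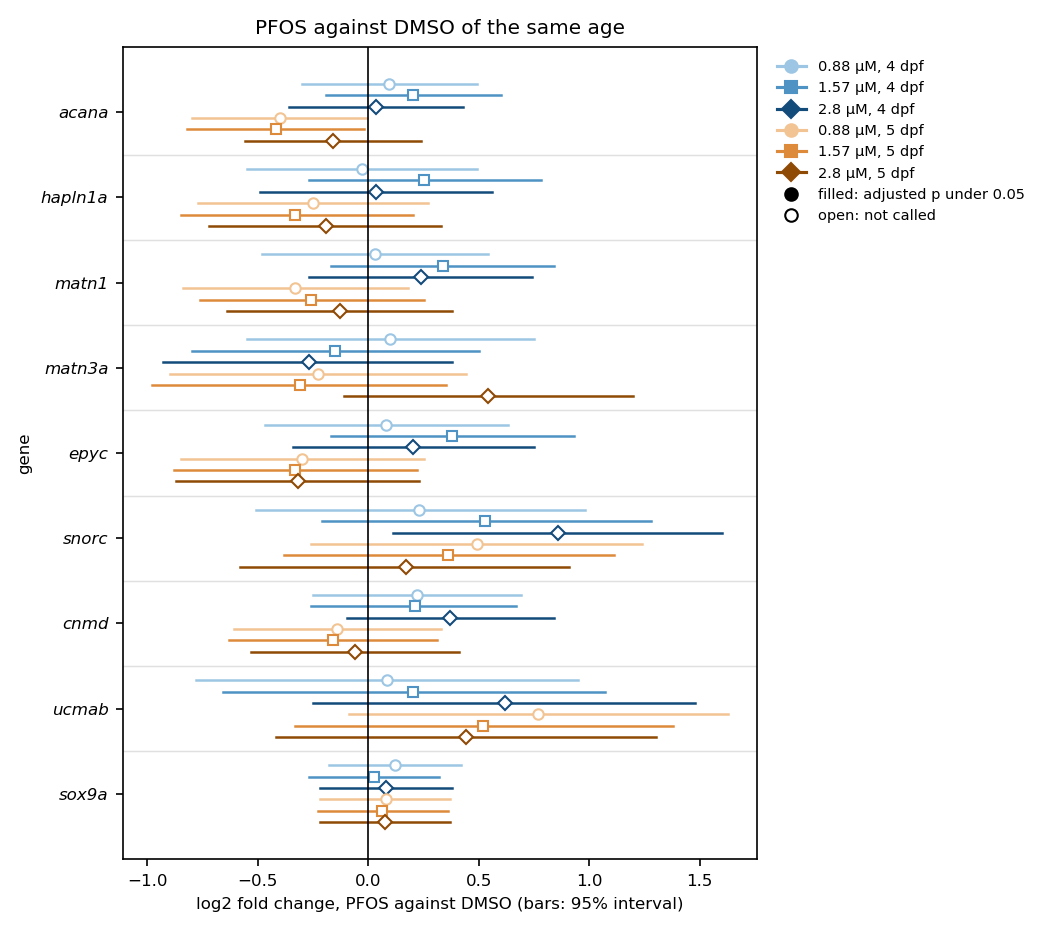
Log2 fold change of each gene against DMSO of the same age for 3 PFOS concentrations at 4 dpf (blue) and 5 dpf (orange), with 95% intervals. All symbols are open because 0 of 9 genes passed. The widest intervals belong to snorc and ucmab, and the narrowest to sox9a.

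Within groups, several of the members varied together. Each library's log2 CPM was taken as a deviation from its group mean, and Pearson's r and Spearman's rho were computed for the 36 pairs over 48 libraries, with permutation p-values adjusted over the pairs. The permutations shuffled the deviations of all 48 libraries freely across groups and ages. They did not allow for the fitted group means, so p can be somewhat too small, which matters for pairs near the threshold. By r, 19 pairs passed, 16 positive and 3 negative, and 17 of them passed by rho as well. High values were found for pairs among acana, matn1, epyc and cnmd, though not for all of them. Lower were acana and cnmd (r = 0.5, rho = 0.52) and cnmd and epyc (0.44 and 0.49). Snorc had r = 0.58 with cnmd and 0.57 with epyc. The pair matn1 and epyc had r = 0.82 and rho = 0.85, acana and epyc 0.79 and 0.77, matn1 and cnmd 0.78 and 0.8, and acana and matn1 0.76 and 0.74, each with a permutation p of 1e-05 for both, the smallest that 100000 permutations can give, or 7.2e-05 (r) and 6e-05 (rho) adjusted. Without the 2 pools farthest from the median of the first gene r was 0.84, 0.75, 0.75 and 0.71 in that order, and without the low-correlation libraries 0.84, 0.81, 0.8 and 0.77. Pools share a depth and a tissue makeup across all their genes, so pairs of genes are not independent readings. How many pairs of other genes would pass was not counted, so 19 of 36 cannot be read as particular to the members.

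The pair snorc and ucmab had r = 0.81 and rho = 0.74 (adjusted permutation p of 7.2e-05 and 6e-05), 0.72 without the 2 farthest pools and 0.6 over the 45 pools that were not low-correlation libraries. The 3 negative pairs were those of hapln1a with ucmab (r = -0.53, rho = -0.32, adjusted permutation p = 0.00061 and 0.049), snorc (-0.43, -0.12, 0.0083 and 0.48) and matn3a (-0.34, -0.18, 0.033 and 0.29). All 3 rested on the low-correlation libraries, since without them r was -0.18, 0.28 and -0.018. Conversely hapln1a and epyc were at r = 0.24 over 48 libraries and 0.76 over 45. Over 48 libraries this pair passed by rho, at 0.49, and not by r (adjusted permutation p of 0.0016 and 0.14). Of the 8 pairs of the regulator sox9a 0 passed, and its highest r over 48 libraries was 0.3, with acana (rho = 0.26, adjusted permutation p of 0.065 and 0.11). Without the 2 pools farthest from the median of sox9a, r was 0.38 with ucmab and 0.36 with cnmd. For sox9a and acana, the 2 pools farthest from the median of acana were left out instead, and r was 0.23. Without the low-correlation libraries it was 0.33 with ucmab and 0.22 with acana.

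**Figure D5:**
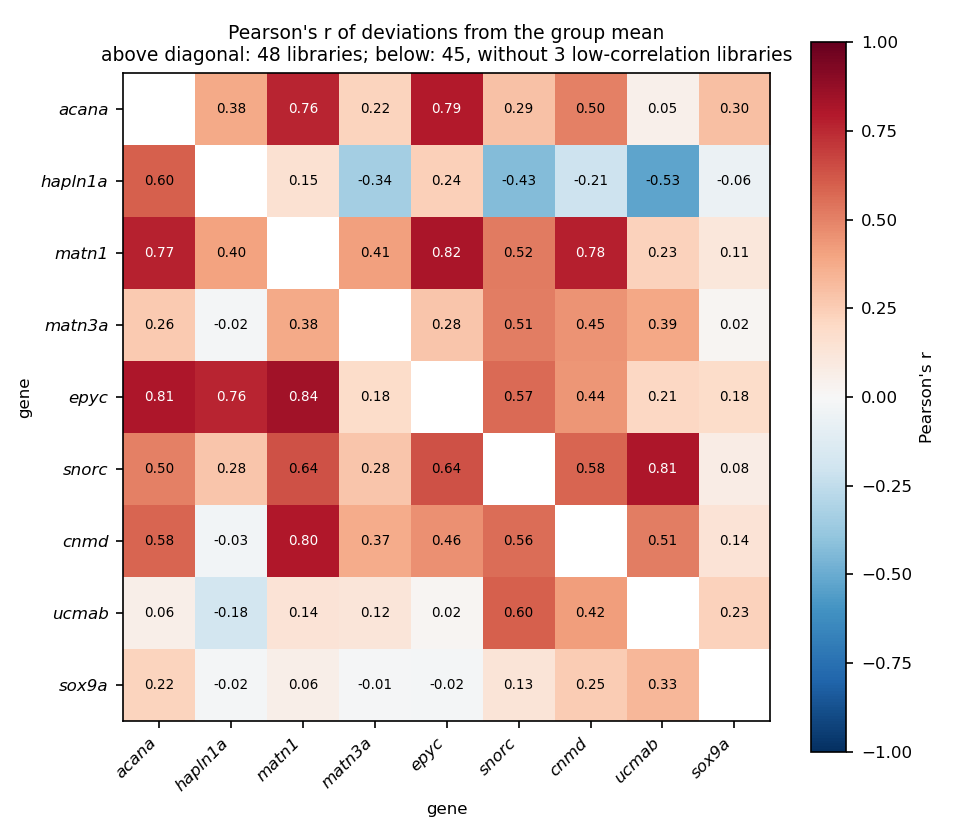
Pearson's r between genes, of log2 CPM deviations from the group mean, over 48 libraries above the diagonal and over 45 without the low-correlation libraries below it. The pairs among acana, matn1, epyc and cnmd are positive on both sides, while hapln1a with snorc and with ucmab, at -0.43 and -0.53 above the diagonal, are at 0.28 and -0.18 below it.

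Among 11926 other named genes with a mean log2 CPM of at least 1, those whose deviations were most like the mean deviation of the 9 members over 48 libraries were loxl3b (r = 0.92), oclna (0.86), col5a3b and col11a1a (0.85), col9a1b, lamb2 and col9a3 (0.84) and arsia (0.83). The median r over all of these genes was -0.026. Of the 8, col11a1a, col9a1b and col9a3 encode chains of the cartilage fibril collagens, col5a3b a type V collagen chain, loxl3b a lysyl oxidase, an enzyme of the class that cross-links collagen, lamb2 a laminin chain and oclna an occludin of cell junctions. The list held 8 of the same 8 genes under another library scaling (RLE), 4 without the low-correlation libraries and 2 in the authors' quantile normalized values, where loxl3b was still at the top (r = 0.9) and col11a1a was at rank 874 (0.52). These correlations describe pools that share their composition, and no p is given.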

How the data were processed

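PolyA RNA of 48 pooled head samples was sequenced. The submitters' processing notes name STAR 2.5.3a, Partek 8.0.19.0428 and build GRCz11. The gene annotation, strand setting and handling of reads with several matches are not given in the sources used here. What the authors deposited as a raw table are expected counts, 81.2% of them whole within 0.01, so reads can be shared between genes, paralogues included. Their normalized table, which holds quantile normalized log2 values per the file headers, served only as an alternative.

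Expected counts were rounded, genes filtered by group with filterByExpr (20021 of 25377 kept) and libraries scaled by TMM. One model of the 8 groups, with all 48 libraries, was tested by quasi-likelihood in edgeR 4.0.16 (R 4.3.3). The p-values were adjusted by Benjamini-Hochberg over the 20021 genes, with a threshold of 0.05. CPM are TMM-scaled, log2 CPM had a prior count of 2, and SE was derived from the fold change and its F statistic. The fit was tested on simulated counts. Intervals follow the spread between pools, and no molecular identifiers are named in the labels.

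All 9 members are named. Other cartilage genes were named from 4 lists, up to 3 called genes per list with the highest absolute change for age in DMSO among those with mean log2 CPM of 1 or more, and so were the 8 genes most like the members by r. Outside this rule col11a2, col2a1a, acanb and hapln1b are named, chosen after their values were seen, as are markers given as checks of the tissue. The members and lists were chosen with earlier results of these data known. Alternatives were RLE scaling, leaving the filter out, requiring 1 CPM in 6 libraries, the replicate letter as a block, DESeq2 1.42.0, limma-trend (limma 3.58.1) on the quantile normalized values, fitting only the groups compared, and leaving out each library. Leaving out the 3 libraries whose median correlation was under 0.95 was chosen after seeing the data. Gene sequences and transcript lengths were not used here.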

Additional observations from a re-analysis of the deposited data

Results flagged for a closer look

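In 12 of the 72 sets of 6 pools (9 genes in 8 groups), 1 pool stood away from the other 5 by more than Dixon's 95% limit for the gap over the whole range of log2 CPM. Chance alone gives this in about 1 of 20 sets, and the sets share libraries. Of the 12, 8 were values of the 3 low-correlation libraries: snorc at 28.3 CPM and ucmab at 25.5 CPM in 2.8 µM replicate A at 4 dpf, snorc at 20.7 CPM and ucmab at 31.6 CPM in 0.88 µM replicate H at 5 dpf, and snorc at 19.2 CPM, ucmab at 35.1 CPM, matn3a at 5.06 CPM (all high) and hapln1a at 28.5 CPM (low) in 1.57 µM replicate D at 5 dpf. The other 4 were acana at 90.8 CPM in 1.57 µM replicate I at 5 dpf (low), acana at 266 CPM in 2.8 µM replicate C at 5 dpf (high), matn1 at 2390 CPM in 1.57 µM replicate H at 4 dpf (low) and hapln1a at 132 CPM in DMSO replicate I at 4 dpf (high).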

How the results depend on the processing

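The count of members called for age in DMSO was 1 (matn1), and 2 (with hapln1a) under the replicate block, in a fit of only the groups compared and without the 3 low-correlation libraries; leaving out 1 library gave 0 to 1. For age at 2.8 µM the count was 3, and 1 to 4 with 1 library left out. For PFOS against DMSO, the trends and the difference between ages, 0 members were called in every setting. Over all genes, the 16 called at 1.57 µM and 5 dpf became 0 under the replicate block, 0 with limma-trend and 0 in a fit of only the groups compared, and 1 to 40 with 1 library left out; at 0.88 µM and 5 dpf leaving out 1 library gave 0 to 10; DESeq2 called 5 for the difference between ages at 1.57 µM. For age at 0.88 µM the 2553 genes became 782 in a fit of only the groups compared and 1693 to 3265 with 1 library left out, and at 1.57 µM the 3037 became 1878 to 3104. Of the fold changes put through these settings, ucmab at 1.57 µM and 5 dpf changed sign, to -0.25 without the low-correlation libraries and to between -0.24 (without replicate D) and 0.66 with 1 library left out. Some PFOS estimates near 0 also changed sign: matn1 at 0.88 µM and 4 dpf was at -8.2e-05 under the replicate block, -0.2 in limma-trend and -0.12 to 0.1 with 1 library left out, and matn1 at 2.8 µM and 4 dpf at -0.092 in limma-trend. For sox9a, 1.57 µM at 5 dpf was at -0.0066 in limma-trend, -0.053 without the low-correlation libraries and -0.048 to 0.12 with 1 library left out, which gave -0.076 to 0.089 at 1.57 µM and -0.011 to 0.2 at 2.8 µM for 4 dpf. None of these passed in any setting, and the 35 fold changes that passed kept their sign in every setting run. The cause of these changes was not tested.

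Replicate letters were treated as names: 16 of 41 pairs of libraries with the same letter had correlated deviations above 0.1, from -0.61 to 0.53, and in 0 of 10 comparisons did every pair. With the letter as a block, the age calls of hapln1a at 0.88 µM and of prelp and papss2a in DMSO were lost (adjusted p of 0.0635, 0.0942 and 0.2), and hapln1a in DMSO, acana at 2.8 µM and ucmab on average passed (0.033, 0.0455 and 0.0277). DESeq2 called acana at 2.8 µM (0.0428) and epyc at 0.88 µM (0.0487) for age. In limma-trend hapln1a lost its call at 2.8 µM (0.0705) and cnmd passed on average (0.00449), and in a fit of only the groups compared hapln1a lost its call at 0.88 µM (0.185). Depth limits matn3a, with 24 counts in its lowest library.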
